A study of Rattus norvegicus with 47 samples.

Results

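Gene expression in rat hippocampus was compared with that in cortex on the side of the brain ipsilateral to an injury, 4 h after it. The comparison takes the 7 arrays labelled ipsilateral hippocampus ("HC" in the labels, read as hippocampus) and the 7 labelled ipsilateral cortex at 4 h, 14 of the 47 arrays of the series, and all probe sets other than the array's controls. The other arrays carry contralateral hippocampus at 4 h (9), contralateral cortex at 4 h (8) and cortex of either side at 24 h. All arrays come from total RNA extracted with Trizol. Both groups are rat brain tissue 4 h after injury. Their label of treatment has the same entry on all arrays and names no agent, and strain, age, the kind of injury and any sham operation are not given, so both regions may hold injured and uninjured tissue in unknown parts. Whether each array stands for an animal of its own is not stated. A p-value here is therefore set by the variation among arrays, part or all of which may be technical, and the number of arrays limits the precision.

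The hippocampus is built of the dentate gyrus, whose granule neurons send mossy fibres to field CA3, and of field CA1, to which CA3 projects. Cortex is a layered tissue of pyramidal neurons and interneurons without granule neurons of the dentate kind. The regions differ in the receptor and channel subunits of their neurons, and share astrocytes, oligodendrocytes, microglia and vessels. In tissue RNA, fewer cells of a type and less RNA per cell cannot be told apart.

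At 4 h, 710 of 4242 genes (16.7%) were higher and 505 (11.9%) lower in ipsilateral hippocampus than in ipsilateral cortex, 1215 or 28.6% in all (limma, Benjamini-Hochberg adjusted p under 0.05). Each gene is represented by its tested probe set with the highest mean level. The median difference over all genes was 0.01 log2 units and that of the called genes, regardless of sign, 0.54. Differences above 2-fold were found for 98 higher and 46 lower genes. The genes furthest up in hippocampus were led by Gpr161, a receptor of primary cilia, and Kit, the receptor of stem cell factor. Those furthest down were led by Kcns1, a subunit that modifies voltage-gated potassium channels, and Trim54, a microtubule-binding protein known from muscle. Over probe sets, 2065 of 7503 (27.5%) passed, 1252 higher (16.7%) and 813 lower (10.8%). The 7 hippocampus arrays lay wholly above or wholly below the 7 cortex arrays for 608 probe sets (8.1%), above for 363 (4.84%) and below for 245 (3.27%). Of the called probe sets, 1742 name 1 gene, 82 several and 241 none. For 20 genes, probe sets passed in both directions, among them Gnb1, Hsp90ab1, Hsph1, Crem and Pde4b.

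The arrays of the regions also differed in technical measures. Bacterial spike-in transcripts, added to each sample, averaged 9.71 ± 0.17 log2 signal on hippocampus arrays and 10.6 ± 0.26 on cortex arrays (SD, n = 7 each). The groups did not overlap (exact two-sided permutation test, p = 0.000583, the smallest this design can give; adjusted p = 0.0035 over 6 measures). The 3-prime to 5-prime ratio of the beta-actin control, a measure of RNA length, was 1.33 ± 0.093 in hippocampus and 1.64 ± 0.17 in cortex (exact p = 0.00233, adjusted p = 0.00699). The 10th percentile of signal was 44.7 ± 6.8 on hippocampus arrays and 57.5 ± 10 on cortex arrays (exact p = 0.0221, adjusted p = 0.0442). Median signal (766 ± 29 and 715 ± 57), the Gapdh ratio (1.12 ± 0.053 and 1.19 ± 0.087) and the percentage of values at the floor (25.9 ± 0.89 and 25 ± 1.9) did not pass (adjusted exact p = 0.0778, 0.103 and 0.231). The high spike-in level was shared by the 4 h cortex arrays of both sides, so region and this level cannot be told apart at 4 h. When the spike-in level was entered as a covariate over all 47 arrays, 947 probe sets passed, 568 higher and 379 lower. Because this level did not overlap between the regions, the covariate can also widen the SE. A call can then be lost without a smaller difference. Of the 185 genes named by rule, 58 lost their call with the covariate and 6 turned sign. Those turned were Cebpd, Foxe3, Gabra6, Hsp90ab1, Nr3c1 and Scn9a. Among the genes given by name, the call was lost for Acta2, Adora2a, Adra1b, Afm, Bdnf, Cacna1g, Cdk4, Cebpb, Chrna3, Dusp1, Gal, Gnai1, Gnal, Grik1, Grik4, Grm3, Grm8, Hbb, Homer1, Hsph1, Icam1, Idi1, Kcna4, Kcnj10, Ly6c, Mag, Mbp, Mog, Myh11, Nell1, Nlgn2, Pgr, Pomc, Rab3c, Rpa3, S100a8, Sncg, Sostdc1 and Vwf. Pearson's r across probe sets, which are not independent replicates, was 0.962 to 0.982 among hippocampus arrays, 0.948 to 0.971 among cortex arrays and 0.931 to 0.964 between the regions.

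**Figure D1:**
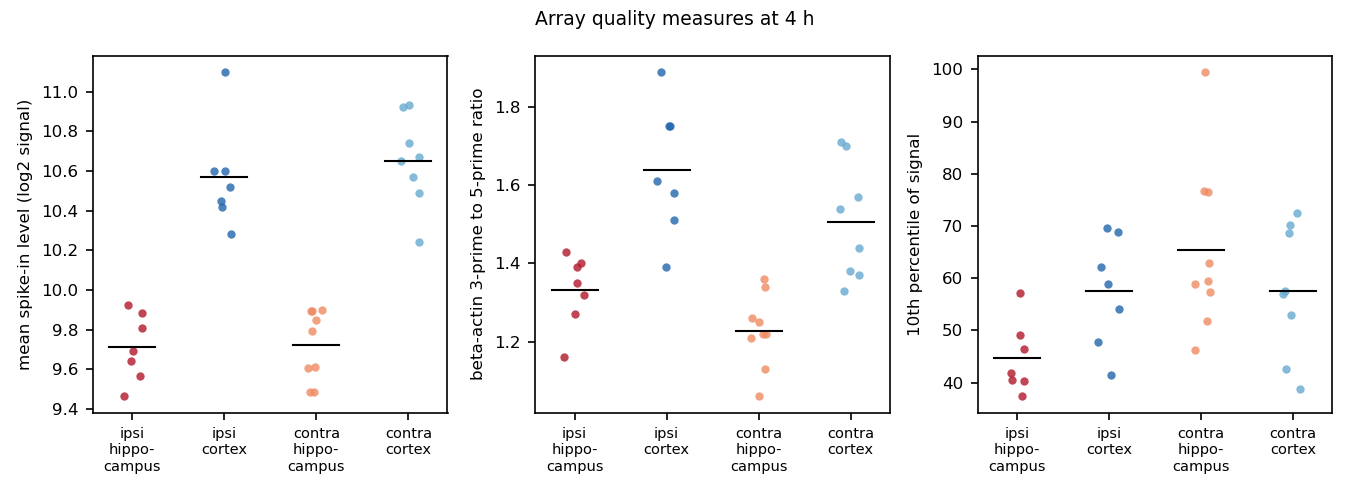
Spike-in level (log2 signal), beta-actin 3-prime to 5-prime ratio and 10th percentile of signal (signal units) of each 4 h array, by group; points are arrays and black lines are group means. The 7 ipsilateral hippocampus arrays lie between 9.46 and 9.92 in spike-in level and the 7 ipsilateral cortex arrays between 10.3 and 11.1.

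The tissue labels were set against marker lists. These lists were fixed with earlier results of these data known, so they give no independent check of the labels. The hippocampal list holds Gpr161, Doc2b, Sncg and Neurod1, which are among the 15 genes furthest up. The mean level of 14 genes listed as enriched in hippocampus was 10.87 to 11.34 log2 signal on the hippocampus arrays and 9.8 to 10.32 on the cortex arrays, without overlap. The mean of 18 genes listed as enriched in cortex was 11.09 to 11.37 in hippocampus and 11.42 to 11.65 in cortex, also without overlap. Of the hippocampal list 9 genes were higher, 1 lower and 4 did not pass, with a median of 1.06. Of the cortical list 8 were lower, 5 higher and 5 did not pass, with a median of −0.39. The called shares of the hippocampal and cortical lists were 71.4% and 72.2%, against 28.6% over all genes. The 5 higher ones included Rab3c (a vesicle GTPase, 1.12), Nr4a2 (a nuclear receptor, 0.76) and Marcks (a substrate of protein kinase C, 0.62). Of 4 thalamic and midline markers, 3 were higher, namely galanin (Gal), calretinin (Calb2) and Prkcd, and Cacna1g was lower. The calls of Gal and Cacna1g were lost with the spike-in covariate. Their mean level did not overlap either (10.52 to 11.23 and 10.1 to 10.42). The share of neighbouring tissue in the regional difference was not tested.

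To show the sequence before the start of the genes that lead each direction, the 250 bases upstream of 4 of them are given from RefSeq (rat build GRCr8; the array files name no build), 5′ to 3′ on the gene's strand, with each CG pair in capitals. Gpr161 (chr13:80111021-80111270, plus strand, 34 CG pairs) and Neurod1 (chr3:84770455-84770704, minus strand, 21 pairs) were higher in hippocampus. Kcns1 (chr3:173262347-173262596, minus strand, 18 pairs) and Tnnc2 (chr3:173935340-173935589, minus strand, 2 pairs) were lower.
Gpr161: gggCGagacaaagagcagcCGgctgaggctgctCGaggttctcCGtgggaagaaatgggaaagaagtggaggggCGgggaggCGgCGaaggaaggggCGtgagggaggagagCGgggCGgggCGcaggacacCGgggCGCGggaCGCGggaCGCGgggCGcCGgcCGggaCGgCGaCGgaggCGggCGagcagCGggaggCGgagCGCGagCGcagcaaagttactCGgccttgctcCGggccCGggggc
Neurod1: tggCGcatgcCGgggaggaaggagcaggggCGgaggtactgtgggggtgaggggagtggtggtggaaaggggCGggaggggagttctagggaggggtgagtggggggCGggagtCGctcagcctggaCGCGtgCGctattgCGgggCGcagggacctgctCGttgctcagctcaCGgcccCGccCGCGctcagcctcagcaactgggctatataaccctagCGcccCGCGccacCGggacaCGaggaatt
Kcns1: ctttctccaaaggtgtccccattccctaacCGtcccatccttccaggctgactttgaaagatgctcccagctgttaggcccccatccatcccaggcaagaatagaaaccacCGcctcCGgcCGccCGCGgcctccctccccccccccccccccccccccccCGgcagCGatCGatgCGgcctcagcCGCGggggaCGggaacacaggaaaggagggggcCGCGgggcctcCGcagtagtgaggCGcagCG
Tnnc2: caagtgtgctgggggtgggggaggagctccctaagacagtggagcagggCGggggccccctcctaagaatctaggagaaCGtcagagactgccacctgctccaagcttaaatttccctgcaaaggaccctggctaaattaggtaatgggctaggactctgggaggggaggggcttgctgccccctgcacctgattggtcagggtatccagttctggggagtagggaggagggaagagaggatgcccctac
The median number of CG pairs in this window was 19 over the 581 higher genes with a promoter in the table and 17 over the 416 lower ones, against 15 over the 3472 tested genes matched. The E-box CAGATG, a form that Neurod1 can bind, was searched on both strands; read on either strand it cannot overlap itself. It occurred in 9.64% of the higher, 11.8% of the lower and 10.7% of all tested genes, and in 14% of all 33469 promoters of the table. None of the 4 sequences above holds it. Among the 21 of the 30 leading genes with a promoter in the table, it was found in 2, Fgfr2, which was higher, and Medag, which was lower.

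Gpr161 had signals of 5132, 6279 and 8040 on hippocampus arrays, against 455.3, 727.6 and 1050 on cortex arrays (lowest, median and highest of 7, a wording kept below). All hippocampus arrays lay far above all cortex arrays, and the difference was 3.08 (SE 0.15, limma adjusted p = 5.06e-22) log2 units. Neurod1, a transcription factor of dentate granule neurons, had signals of 2962, 4235 and 4909 on hippocampus arrays, against 704.2, 1131 and 1344 on cortex arrays. Its groups were separate too, with a difference of 1.92 (SE 0.14, limma adjusted p = 3.69e-15). Doc2b, a calcium sensor of vesicle release, had signals of 946.9, 1256 and 1307 on hippocampus arrays, against 103.2, 139.1 and 595.3 on cortex arrays. Only 2 cortex arrays exceeded the floor of 185.8, below which values were raised to it, so that the difference of 2.29 (SE 0.26, limma adjusted p = 1.79e-09) is a fold against a group mostly at the floor. Kit had signals of 1621, 2520 and 2808 on hippocampus arrays, against 374.3, 461.8 and 634.5 on cortex arrays, and the difference was 2.29 (SE 0.16, limma adjusted p = 1.11e-15). Both of its probe sets were higher. Nnat, neuronatin, a small membrane protein of developing neurons, had signals of 38250, 48360 and 53420 on hippocampus arrays, against 9482, 10670 and 15270 on cortex arrays. No cortex array reached a hippocampus array, at a difference of 2.03 (SE 0.10, limma adjusted p = 7.94e-22).

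Htr5b, a serotonin receptor, had signals of 846.5, 1605 and 2123 on hippocampus arrays, against 40.52, 386.6 and 739.6 on cortex arrays, a difference of 1.96 (SE 0.28, limma adjusted p = 3.5e-07) without overlap. Htr2c, another serotonin receptor, had 696.3, 1179 and 1907 on hippocampus arrays, against 67.21, 335.9 and 543.4 on cortex arrays, a difference of 1.88 (SE 0.26, limma adjusted p = 1.74e-07). Ntf3, the ligand neurotrophin-3, differed by 1.78 (SE 0.23, limma adjusted p = 3.16e-08) and Fgfr2, a receptor of fibroblast growth factors, by 1.93 (SE 0.27, limma adjusted p = 2.5e-07). The other probe sets of Fgfr2 were at 0.95 and 0.78, which passed, and at 0.38, which did not. Lpl, lipoprotein lipase, had signals of 4060, 4817 and 5808 on hippocampus arrays, against 1051, 1285 and 1767 on cortex arrays and a difference of 1.85 (SE 0.18, limma adjusted p = 3.02e-11), with all 3 of its probe sets higher. These 5 genes had no overlap between the regions.

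The 15 genes furthest up were picked by their difference on these arrays, so separate groups give no further support. Among them, 3 had arrays that overlapped. Sncg, gamma-synuclein, was at the floor on hippocampus array 24 and between 10.1 and 12.08 log2 signal on the other 6, against 7.54 to 9.8 in cortex (difference 2.28, SE 0.53, limma adjusted p = 0.00089). With the spike-in covariate its difference was still 2.28, and its adjusted limma p was 0.06. Gpd1, which makes glycerol 3-phosphate, was 8.88 and 8.67 on hippocampus arrays 17 and 18 and 10.67 to 11.11 on the other 5, against 7.54 to 9.16 in cortex (difference 1.98, SE 0.43, limma adjusted p = 0.000419). Dcn, the matrix proteoglycan decorin, was 10.77 to 12.51 in hippocampus and 7.54 to 11.08 in cortex (difference 1.76, SE 0.41, limma adjusted p = 0.000786).

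**Figure D2:**
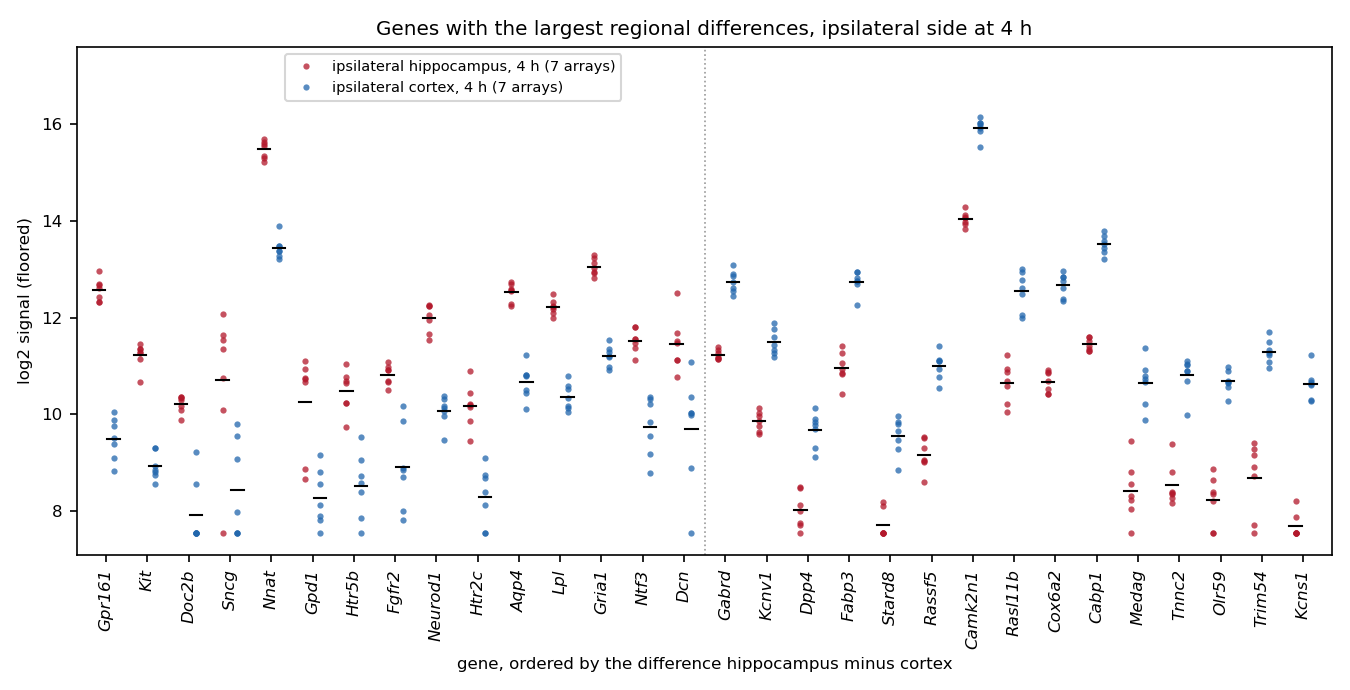
Floored log2 signal of the 15 genes furthest up and the 15 furthest down in ipsilateral hippocampus; points are arrays (hippocampus left of cortex, 7 each), black lines are means. For 27 of the 30 genes the groups do not overlap, against 8.1% of all probe sets, with Sncg, Gpd1 and Dcn as the exceptions. The genes were picked by their difference on these same arrays, which favours separate groups.

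Kcns1 had signals of 65.87, 146.6 and 294.6 on hippocampus arrays, against 1242, 1569 and 2410 on cortex arrays. On hippocampus arrays it was above the floor on only 2 of 7, and the difference was −2.95 (SE 0.14, limma adjusted p = 7.94e-22) log2 units. Camk2n1, an inhibitor of calcium/calmodulin kinase II, had signals of 14650, 17180 and 19880 on hippocampus arrays, against 47500, 64850 and 72630 on cortex arrays. The groups lay well apart at a difference of −1.89 (SE 0.09, limma adjusted p = 1.12e-21), and both probe sets were lower. Cabp1, a neuronal calcium sensor, had 2551, 2716 and 3128 on hippocampus arrays, against 9508, 11830 and 14210 on cortex arrays, a difference of −2.07 (SE 0.10, limma adjusted p = 1.94e-21). Tnnc2, fast troponin C of muscle, had 287.9, 332.3 and 671.6 on hippocampus arrays, against 1015, 1900 and 2209 on cortex arrays, a difference of −2.27 (SE 0.19, limma adjusted p = 2.38e-13). Cox6a2, the muscle form of a cytochrome c oxidase subunit, had 1370, 1667 and 1919 on hippocampus arrays, against 5207, 6946 and 8046 on cortex arrays, a difference of −2.01 (SE 0.11, limma adjusted p = 2.85e-20). For Fabp3, the heart form of fatty acid-binding protein, the difference was −1.77 (SE 0.13, limma adjusted p = 5.25e-15), and for Trim54 −2.62 (SE 0.27, limma adjusted p = 7.99e-11). None of these genes had overlapping groups.

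The rest of the 15 genes furthest down, picked in the same way, were separate between the regions as well. Olr59 carries the name of an olfactory receptor gene, and its difference was −2.46. Medag, known from fat cell formation, differed by −2.24. Rasl11b is a Ras-like GTPase (−1.91) and Rassf5 a Ras effector (−1.84). The difference of Stard8 was −1.84. Stard8 was above the floor on 3 of 7 hippocampus arrays. Kcnv1, a potassium channel subunit without current of its own (−1.64), Gabrd, a GABA receptor subunit (−1.51), and Dpp4, a surface peptidase (−1.67), completed them. Each of the 15 had a limma adjusted p of at most 3.53e-10, that of Dpp4.

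Glutamate receptors differed by subunit. Of 9 AMPA and kainate receptor genes, 4 were higher, 1 lower and 4 did not pass (median 0.37), against 16.7% higher and 11.9% lower over all genes. Gria1, the AMPA receptor subunit GluA1, had signals of 7251, 8330 and 10090 on hippocampus arrays, against 1924, 2358 and 2977 on cortex arrays. The regions were separate, with a difference of 1.85 (SE 0.10, limma adjusted p = 1.44e-20), and all 3 probe sets were higher. Gria2, whose edited subunit keeps calcium out of the channel, was higher by 0.37 (SE 0.085), while Gria3 (0.16) and Gria4 (−0.30) did not pass. Of the kainate receptors Grik4 (0.69), prominent in CA3, and Grik1 (0.60) were higher, Grik5 was lower (−0.31), and Grik2 (0.40) and Grik3 (−0.23) did not pass. The call of Grik1 was lost without any one of cortex arrays 1, 3, 5 and 8 or hippocampus arrays 17 to 21. With the spike-in covariate 1 of the 9 was higher and 1 lower. Of 13 genes of NMDA and metabotropic receptors, their scaffold Homer1 included, 0 were higher and 3 lower in limma, Grm8 (−0.67), Homer1 (−0.36) and Grm3 (−0.34), with a median of 0.06. The called share was 23.1%. The value of Homer1 is that of its brightest probe set, and its others ran from −1.45, which passed, to 0.22, which did not.

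GABA receptor subunits split in both directions. Of 16 GABA and glycine receptor genes 7 were higher, 4 lower and 5 did not pass (median 0.12). This was a called share of 68.8%, against 28.6% over all genes. Gabra5, a subunit of extrasynaptic receptors of hippocampal pyramidal neurons, had signals of 3835, 4671 and 5361 on hippocampus arrays, against 1270, 1481 and 1874 on cortex arrays. Its difference was 1.58 (SE 0.15, limma adjusted p = 6.65e-12), without overlap. Gabrd, a subunit of receptors for tonic inhibition, had signals of 2259, 2328 and 2705 on hippocampus arrays, against 5608, 6771 and 8782 on cortex arrays, and its difference of −1.51 (SE 0.13, limma adjusted p = 4.79e-13) ran the other way. The glycine receptor gene Glra2 (1.47) and Gabrg1 (1.04) were also higher and separate between the regions. The partners of the GABA B receptor diverged on their brightest probe sets: Gabbr1 was higher by 0.48 (SE 0.14) and Gabbr2 lower, at −0.57 (SE 0.08, limma adjusted p = 8.09e-08). The other probe sets of Gabbr2, at −0.21 and −0.15, did not pass. Gabra6 was lower, at −0.64, a call lost without any one of cortex arrays 4, 5 and 6 or hippocampus arrays 18, 19, 21 and 24.

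Of 32 potassium channel genes 7 were higher and 8 lower (median 0.13), 46.9% in all against 28.6% over all genes. Kcnab1, a beta subunit (1.06), rose, as did Kcna4, an A-type channel (1.28), and Kcnj10, an astrocyte channel (0.88). Kcna4 lost its call with the spike-in covariate and did not pass on the contralateral side (0.33, limma adjusted p = 0.313). The call of Kcnj10 was lost without cortex array 7 or hippocampus array 17. Besides Kcns1, Kcnh1 had signals of 1637, 1864 and 2521 on hippocampus arrays, against 3893, 5173 and 6206 on cortex arrays and a difference of −1.40 (SE 0.16, limma adjusted p = 2.42e-09) without overlap. The spike-in covariate left 2 of the 32 higher and 7 lower. Of 29 calcium and sodium channel and calcium pump genes 7 were higher and 7 lower (median −0.14), 48.3% in all. Ryr2, a calcium release channel (0.94), and Cacnb2, a channel beta subunit (0.78), were among the higher. Atp2b2, a calcium pump of the plasma membrane, had signals of 5357, 6597 and 7563 on hippocampus arrays, against 11860, 13180 and 15990 on cortex arrays, a difference of −1.12 (SE 0.11, limma adjusted p = 3.76e-11). Cacna2d1, a channel subunit, fell likewise (−0.97), and neither had overlapping groups.

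**Figure D3:**
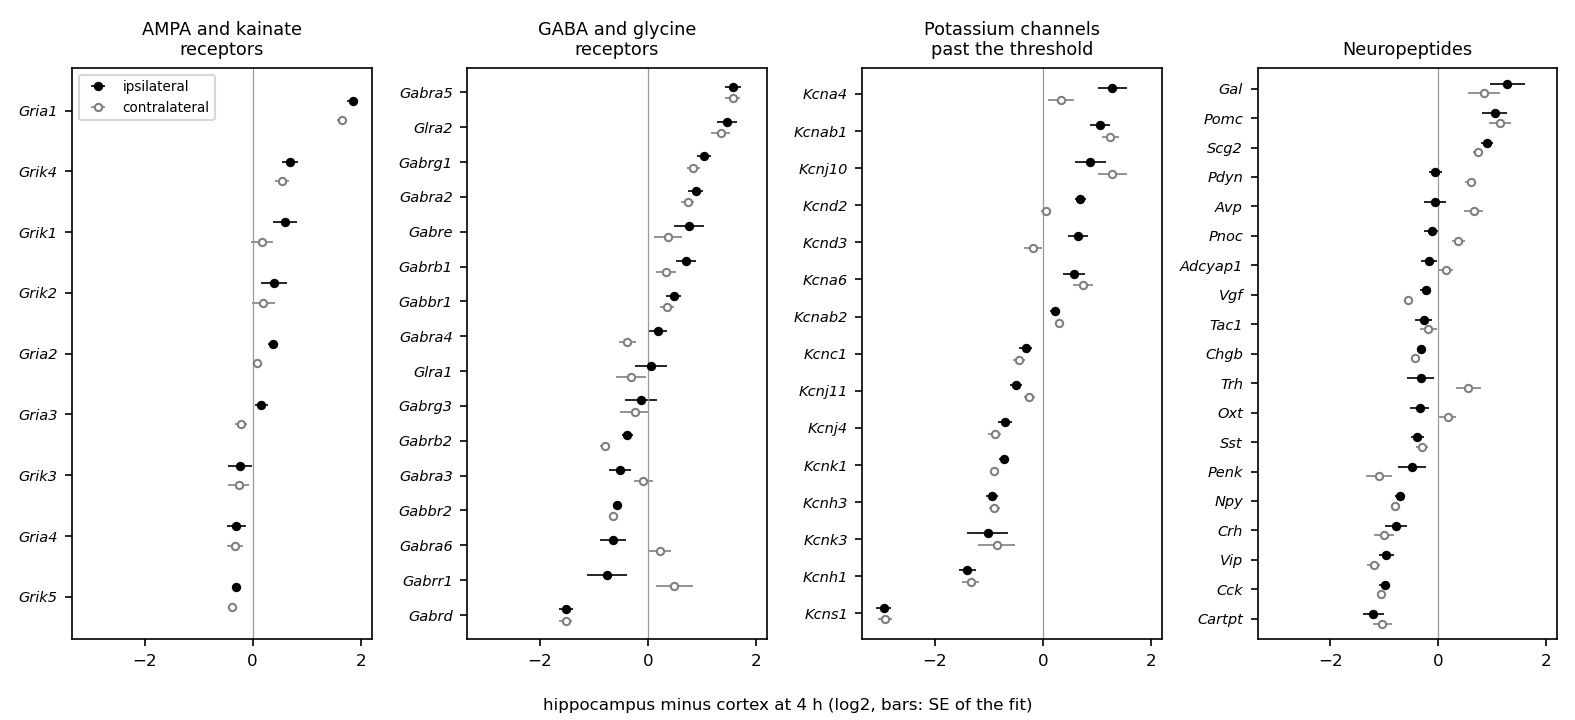
Difference of hippocampus minus cortex at 4 h (log2 units, bars are SE of the fit) on the ipsilateral (filled) and contralateral (open) side, for AMPA and kainate receptors, GABA and glycine receptors, potassium channels past the threshold on the ipsilateral side, and neuropeptides. Gria1 lies at 1.85 on the ipsilateral and 1.65 on the contralateral side, Gabrd at −1.51 and −1.52.

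Calcium signalling, G proteins and kinases had members on both sides. Of 29 calcium-binding and calcium-dependent genes 5 were higher and 9 lower (median −0.02), 48.3% in all against 28.6% over all genes. Calretinin, Calb2, a buffer of interneurons and hilar mossy cells in mice, had signals of 3197, 4145 and 4438 on hippocampus arrays, against 1512, 1986 and 2142 on cortex arrays, a difference of 1.09 (SE 0.12, limma adjusted p = 1.58e-09). Parvalbumin, Pvalb, a buffer of fast-spiking interneurons, had 2941, 3380 and 3694 on hippocampus arrays, against 4181, 6225 and 7499 on cortex arrays, a difference of −0.86 (SE 0.11, limma adjusted p = 3.62e-08). Neurogranin, Nrgn, which holds calmodulin in spines, had 42480, 47040 and 55780 on hippocampus arrays, against 76040, 84350 and 95870 on cortex arrays, a difference of −0.83 (SE 0.07, limma adjusted p = 4.37e-14). In each of these 3 genes the regions were separate. Of 18 G protein and RGS genes 7 were higher and 7 lower (median 0.05), 77.8% in all. Rgs14, a regulator prominent in CA2 of mice, was higher by 0.73 and Gnai1 by 0.87. Rgs4, abundant in cortex, was lower, at −1.23, and so was Gnb1, at −0.84, on its brightest probe set, although another of its 3 was higher. Of 32 kinase, cyclase and phosphodiesterase genes 6 were higher, led by Prkca (1.23), and 9 lower, led by Prkar2b (−0.91), median −0.13. That is 46.9% of the list.

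Of 19 neuropeptide genes 7 were lower, 3 higher and 9 did not pass (median −0.32). This was a called share of 52.6%, against 28.6% over all genes. Cartpt had signals of 335.9, 641.8 and 693.4 on hippocampus arrays, against 948.4, 1333 and 2305 on cortex arrays, a difference of −1.20 (SE 0.20, limma adjusted p = 6.82e-06). Cck, cholecystokinin, had 12510, 14750 and 15580 on hippocampus arrays, against 25740, 28170 and 36070 on cortex arrays, a difference of −0.99 (SE 0.10, limma adjusted p = 1.34e-11), and Vip had 554.4, 811.5 and 1136 on hippocampus arrays, against 1399, 1682 and 1852 on cortex arrays, a difference of −0.96 (SE 0.14, limma adjusted p = 2.44e-07). None of the 3 overlapped between regions. Galanin (1.28), the opioid precursor Pomc (1.05) and secretogranin 2, Scg2 (0.91), were higher. Of 16 interneuron markers and enzymes of GABA synthesis 6 were lower and 2 higher (median −0.33), 50% in all. The 2 were Calb2 and Gad2, a GABA-synthesizing enzyme (0.42), whose call was lost without any one of cortex arrays 1, 3, 4 and 7 or hippocampus arrays 17, 18, 21 and 24. Of 38 receptors for peptides, monoamines, adenosine and cannabinoids 9 were higher and 6 lower (median 0.15), 39.5% in all. The cannabinoid receptor Cnr1 (1.04) was higher and separate. Htr2a, a serotonin receptor of cortical pyramidal neurons (−1.09), and the adrenergic receptors Adrb1 (−1.27) and Adra1b (−0.96) were lower.

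Nr3c2, the mineralocorticoid receptor, had signals of 1459, 2054 and 2323 on hippocampus arrays, against 445.8, 649.8 and 838.8 on cortex arrays. The regions were separate, with a difference of 1.57 (SE 0.16, limma adjusted p = 3.26e-11). Nr3c1, the glucocorticoid receptor, was higher by 0.79, a call lost without any one of cortex arrays 3, 5 and 6 or hippocampus arrays 17 to 20, and at −0.02 with the spike-in covariate. In the list of 19 steroid and stress hormone genes 6 were higher and 4 lower (median −0.06), 52.6% in all against 28.6% over all genes. Nr4a1 (−1.08), Crhbp, which binds corticotropin-releasing hormone (−0.93), and the progesterone receptor Pgr (−0.60) were among the lower. Of 46 neurotrophin and growth factor genes 10 were higher and 5 lower (median 0.11), 32.6% in all, close to the 28.6% over all genes. Fgfr1 (1.11) was higher with Fgfr2 and Ntf3, and Gfra2, a co-receptor for neurturin, had signals of 1024, 1268 and 1308 on hippocampus arrays, against 2317, 3077 and 3848 on cortex arrays, a difference of −1.27 (SE 0.13, limma adjusted p = 6.43e-11) without overlap. Ntrk2, the receptor of BDNF, was lower, at −0.43.

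Of 37 neuronal transcription factor genes 14 were higher and 7 lower, with a median of 0.01. This was a called share of 56.8%, against 28.6% over all genes. Nr2f2 (COUP-TFII) differed by 1.57 (SE 0.23, limma adjusted p = 5.07e-07) and Pou3f1 by 1.505 (SE 0.16, limma adjusted p = 2.56e-10). Pou3f2, a relative of Pou3f1 and a factor of upper cortical layers, had signals of 503.9, 549.1 and 568.6 on hippocampus arrays, against 1006, 1379 and 1525 on cortex arrays. It ran the other way, at −1.33 (SE 0.15, limma adjusted p = 8.1e-10). Cux1, another upper-layer factor, was lower, at −0.93. These 4 genes did not overlap between regions. The spike-in covariate left 7 of the 37 higher and 5 lower.

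Genes of synapses ran both ways. Of 34 adhesion and scaffold genes 15 were higher and 6 lower (median 0.16), 61.8% in all against 28.6% over all genes. With the spike-in covariate 9 were higher and 4 lower. Homer3, a scaffold of metabotropic receptors, had signals of 545.9, 752.2 and 912.5 on hippocampus arrays, against 80.18, 212.5 and 278.8 on cortex arrays, a difference of 1.75 (SE 0.19, limma adjusted p = 5.78e-10), with 4 of 7 cortex arrays above the floor. Epha7, an ephrin receptor, was higher by 1.42 (SE 0.23, limma adjusted p = 2.31e-06) and the ephrin Efna5 lower, at −1.14 (SE 0.20, limma adjusted p = 1.15e-05), both without overlap. Of 34 vesicle and release genes 9 were higher and 8 lower (median 0.03), 50% in all, and 4 and 8 with the covariate. After Doc2b, Nsf, the ATPase that separates SNARE complexes, was higher by 0.87. Stx1a, a SNARE of the plasma membrane, had signals of 12100, 15340 and 17280 on hippocampus arrays, against 29940, 32350 and 34530 on cortex arrays, a difference of −1.10 (SE 0.07, limma adjusted p = 1.27e-16), and both probe sets were lower. Of 21 cytoskeletal genes 3 were higher and 4 lower (median −0.12), 33.3% in all, close to the share over all genes. Tubb2b (1.12), a tubulin of growing neurons, was highest and Nefh (−0.50), a neurofilament of large axons, lowest.

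Neurons induce immediate early and activity-regulated genes soon after activity. Of 27 such genes 10 were lower, 4 higher and 13 did not pass, with a median of −0.27 against 0.01 over all genes. This was a called share of 51.9%, against 28.6% over all genes. With the spike-in covariate 4 were lower and 2 higher. Arc, a regulator of AMPA receptor uptake, had signals of 4093, 5898 and 7602 on hippocampus arrays, against 7381, 11860 and 22790 on cortex arrays. The arrays of the regions overlapped slightly, and the difference was −1.10 (SE 0.23, limma adjusted p = 0.00028). Nr4a1 had 2239, 3688 and 4820 on hippocampus arrays, against 4298, 6792 and 14890 on cortex arrays, a difference of −1.08 (SE 0.26, limma adjusted p = 0.00114), and Dusp1, a phosphatase of MAP kinases, had 1334, 1759 and 2181 on hippocampus arrays, against 2474, 3303 and 4575 on cortex arrays, a difference of −0.99 (SE 0.20, limma adjusted p = 0.000158). Nr4a1 overlapped slightly and Dusp1 did not. The other family members went the other way: Nr4a3 had signals of 2244, 3046 and 4130 on hippocampus arrays, against 767.7, 1081 and 1469 on cortex arrays, a difference of 1.55 (SE 0.21, limma adjusted p = 8.34e-08) without overlap, and Nr4a2 differed by 0.76 (SE 0.19, limma adjusted p = 0.00217). Bdnf, the neurotrophin, was higher by 0.70 on its brightest of 7 probe sets, 2 of which were higher and 0 lower in limma. Its call was lost after quantile normalization, with the 10th percentile, the spike-in level or the actin ratio as a covariate, without hippocampus array 17 alone or with 22, and without cortex arrays 7 and 8 together. On the contralateral side 9 of the 27 were lower and 3 higher (median −0.14), and 0 passed the limma test of a difference between the sides. Since the labels do not separate sham from injured tissue, a regional level and a response to injury cannot be told apart here.

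Glial and vascular lists were mixed. Of 17 astrocyte markers 4 were higher and 5 lower (median −0.12, and 0.01 after quantile normalization). This was a called share of 52.9%, against 28.6% over all genes. Aqp4, the astrocyte water channel, had signals of 4823, 6111 and 6857 on hippocampus arrays, against 1103, 1781 and 2384 on cortex arrays, a difference of 1.86 (SE 0.20, limma adjusted p = 3.47e-10) without overlap. Fabp7, a fatty acid-binding protein of radial glia (1.08), and Gja1, the gap junction protein connexin 43 (0.89), were also higher and separate. Ntrk2 and Aldoc, an aldolase of astrocytes (−0.35), were lower. The other probe set of Aldoc, at 0.06, did not pass, and the call of Aldoc was lost after quantile normalization. Of 12 oligodendrocyte and myelin markers 7 were higher, 1 lower and 4 did not pass (median 0.38), a called share of 66.7%. Their mean level was 13.11 to 13.48 log2 signal in hippocampus and 12.73 to 13.04 in cortex, without overlap. Pdgfra, which marks oligodendrocyte precursors, had signals of 4111, 4720 and 5490 on hippocampus arrays, against 2362, 2575 and 3195 on cortex arrays, a difference of 0.81 (SE 0.12, limma adjusted p = 1.11e-06). The myelin proteins Mag (0.60) and Mog (0.52) were higher and Mbp, myelin basic protein, lower (−0.22, and 0.02 after quantile normalization). The call of Mbp was lost without any one of cortex arrays 1, 4, 5 and 6 or hippocampus arrays 18, 19, 21 and 24. With the spike-in covariate 3 of the 12 were higher and 0 lower in limma.

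Of 18 microglia and macrophage markers 1 was higher and 2 lower (median −0.09), 16.7% in all, below the 28.6% over all genes. Lyz2, a lysozyme (−0.76), was among the lower, and Ptprc (0.73) was the higher one. Ptprc lost its call without any one of cortex arrays 4, 5 and 8 or hippocampus arrays 17 and 19 to 22. Of 13 endothelial and mural markers 3 were higher, 1 lower (median −0.06), 30.8% against 28.6% over all genes, and 0 and 0 with the spike-in covariate in limma. The 3 were Vwf (0.96), Myh11 (0.81) and Acta2 (0.56). Their calls were lost when single arrays were left out, that of Vwf for 11 of 14 arrays, namely cortex arrays 1, 3 and 5 to 8 and hippocampus arrays 17, 20 to 22 and 24, that of Myh11 for cortex arrays 1, 3, 6 and 8 and hippocampus arrays 19 to 21, and that of Acta2 for cortex array 5 and hippocampus arrays 20 and 21. Of 15 meningeal and fibroblast markers 4 were higher, led by Dcn, and 0 lower in limma (median 0.11). Their called share of 26.7% was close to that over all genes. Of 11 striatal markers 1 was higher, Gnal (1.20), a G protein of the olfactory and striatal kind, and 1 lower, Adora2a (−0.57). Together they were 18.2% of the list, below the 28.6% over all genes. Adora2a lost its call without any one of cortex arrays 1, 5 and 6 or hippocampus arrays 17 and 19 to 21. Of 8 blood markers 2 (25%) were lower, the haemoglobin gene Hbb (−0.48) and S100a8 (−0.47), and 1 was at the floor on all hippocampus arrays. Hbb lost its call without cortex array 5, S100a8 without cortex array 6, 7 or 8.

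Choroid plexus genes varied from array to array. Of 9 markers 2 were higher, Htr2c and Sostdc1, and 0 lower in limma (median 0.27), 22.2% in all against 28.6% over all genes. Ttr, transthyretin, the leading plexus transcript, was 16.39, 15.73 and 15.94 log2 signal on hippocampus arrays 17, 18 and 24, and 10.12 to 11.67 on the other 4. In cortex it was 15.88 on array 4, 13.13 on array 1 and 9.19 to 11.49 on the other 5. Its mean difference of 1.85 did not pass. Sostdc1 was 11.26, 10.66 and 10.6 on the same 3 hippocampus arrays and 8.41 to 9.05 on the others, against 7.54 to 9.44 in cortex. Its difference was 1.28 (SE 0.41, limma adjusted p = 0.0156), and the call was lost without array 17. On the 4 hippocampus arrays with low Ttr, Htr2c was 9.44 to 10.2, above all cortex arrays (7.54 to 9.09), and on cortex array 4, with high Ttr, it was at the floor of 7.54.

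Of 17 genes of the respiratory chain and ATP synthase 7 were lower and 1 higher, with a median of −0.26. This was a called share of 47.1%, against 28.6% over all genes. Cox6a1, a subunit of cytochrome c oxidase, had signals of 38920, 47820 and 50530 on hippocampus arrays, against 66810, 77540 and 81090 on cortex arrays, a difference of −0.66 (SE 0.07, limma adjusted p = 1.65e-10) without overlap, and Cox4i1 was lower, at −0.55. Of 15 genes of glycolysis and lactate 6 were lower and 2 higher (median −0.15), 53.3% in all. Ldhb, a lactate dehydrogenase subunit, had signals of 22300, 25990 and 29270 on hippocampus arrays, against 34230, 46270 and 48790 on cortex arrays, a difference of −0.72 (SE 0.13, limma adjusted p = 1.69e-05), Pfkp was lower, at −0.59, and its relative Pfkl was higher by 0.70. After quantile normalization the glycolysis list had 2 lower and 1 higher, with a median of 0.00. Of 32 cytosolic ribosomal protein genes 7 were lower and 2 higher (median −0.06), 28.1% against 28.6% over all genes, with Rps29 (−0.55) and Rpl35 (−0.45) lowest and separate between regions. Of 13 cholesterol synthesis genes 1, Idi1 (0.94), was higher and 0 lower in limma, and of 18 cell cycle genes 1 was higher, Cdk4 (0.33), and 1 lower, Cdk5 (−0.60), a kinase of postmitotic neurons. Both called shares, 7.69% and 11.1%, were below the 28.6% over all genes.

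Of 25 cytokine and chemokine genes 3 were lower and 1 higher, with a median of −0.18. This called share of 16% was below the 28.6% over all genes. Cx3cl1, a chemokine of neurons, had signals of 27640, 32470 and 38860 on hippocampus arrays, against 44990, 51380 and 70120 on cortex arrays, a difference of −0.69 (SE 0.09, limma adjusted p = 6.77e-08) without overlap and with all 3 probe sets lower. Icam1, a leukocyte adhesion molecule (−0.79), and Cebpd, a transcription factor of the acute phase (−0.64), were lower, while its relative Cebpb was higher (0.82). The calls of these 3 were lost when single arrays were left out, that of Icam1 without cortex array 5, 6 or 8 or hippocampus array 18, 19 or 20, that of Cebpd without cortex array 1, 3, 5 or 6 or hippocampus array 17, 19, 20, 21 or 24, and that of Cebpb without cortex array 1, 3 or 4 or hippocampus array 21, 22 or 24. Of 17 heat shock and chaperone genes 3 were lower and 0 higher in limma (median −0.17), each counted on its brightest probe set. The lower ones were Hmox2, the constitutive haem oxygenase (−0.33), Hsph1 (−0.38) and Hsp90ab1 (−0.225). For Hsph1 and Hsp90ab1 the direction differed by probe set, since another probe set of each passed as higher (0.77 and 0.34). After quantile normalization the brightest probe set of Hsp90ab1 was at 0.028. Of 19 metallothionein and antioxidant genes 3 were higher and 2 lower (median −0.06), with catalase, Cat (1.11), highest. The called share of 26.3% was close to the 28.6% over all genes. Of 24 matrix and protease genes 5 were higher and 2 lower (median 0.06), with the proteoglycan versican, Vcan (1.21), highest, and the called share of 29.2% was as close. Of 15 muscarinic and nicotinic genes 2 were higher and 3 lower (median 0.02), 33.3% in all. Chrna3, a nicotinic subunit, was the lowest of these, with signals of 65.88, 269 and 299.8 on hippocampus arrays, against 101.7, 523.3 and 675.1 on cortex arrays and a difference of −1.07 (SE 0.28, limma adjusted p = 0.00336). The arrays of the regions overlapped.

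Quantile normalization moved some list medians across 0. They became −0.04 for NMDA and metabotropic receptors, 0.01 for calcium-dependent signalling, −0.05 for muscarinic and nicotinic genes, −0.03 for neuronal transcription factors, 0.03 for ribosomal proteins and 0.08 for the cytoskeleton. No direction is given for these lists.

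**Figure D4:**
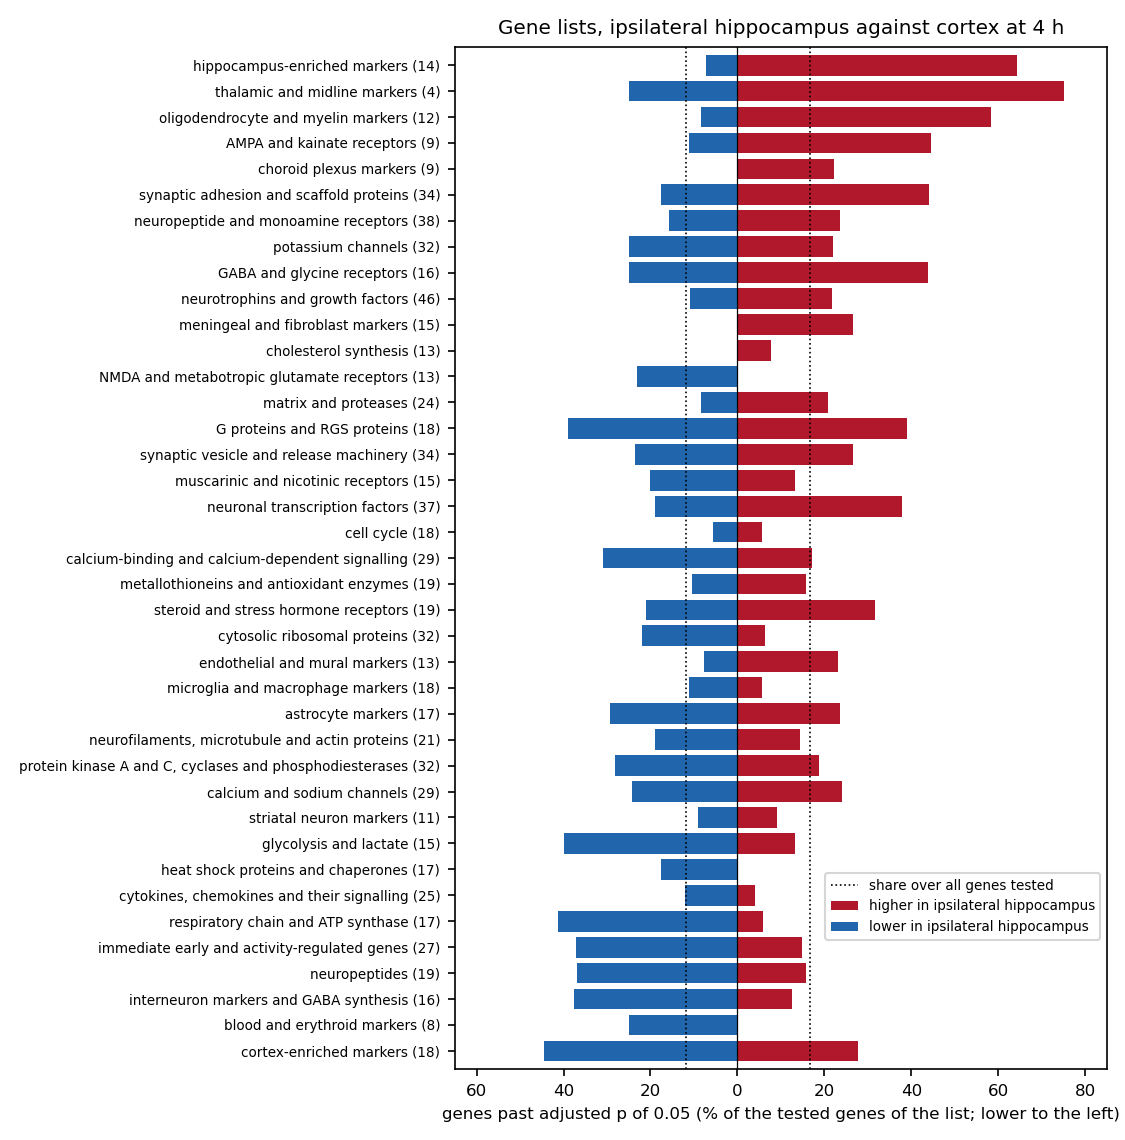
Share of each list's tested genes (number in brackets) that were higher (right) or lower (left) in ipsilateral hippocampus than in ipsilateral cortex, in percent, ordered by the list's median difference; dotted lines mark 16.7% higher and 11.9% lower over all 4242 genes. Of the hippocampus-enriched list 9 of 14 genes were higher and 1 lower, and of the cortex-enriched list 5 of 18 were higher and 8 lower.

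The contralateral side gives the same regional comparison at 4 h on other arrays, 9 of hippocampus and 8 of cortex, but possibly of the same animals. There 1475 genes passed (34.8%), 985 higher (23.2%) and 490 lower (11.6%) in hippocampus. Of probe sets 2530 passed (33.7%), 1676 higher (22.3%) and 854 lower (11.4%). On both sides 422 genes were higher, which is 59.4% of those higher on the ipsilateral side and 42.8% of those higher on the contralateral side. Both sides had 291 lower genes in common, 57.6% of the ipsilateral and 59.4% of the contralateral ones, and 17 genes passed in opposite directions. Of the genes called on the ipsilateral side 87.8% had a contralateral difference of the same sign. Across genes, which are not independent replicates, r between the differences was 0.556. Across probe sets above the median level it was 0.715, and across those up to it 0.406.

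All 30 genes furthest up or down on the ipsilateral side passed in the same direction on the contralateral side. Gpr161 differed by 3.08 on the ipsilateral and 2.80 on the contralateral side, Kcns1 by −2.95 and −2.93, and Tnnc2 by −2.27 and −2.06. For Camk2n1 the differences were −1.89 and −2.07, for Gria1 1.85 and 1.65 and for Gabra5 1.58 and 1.57. One of the 30, Dpp4, differed between the sides. Set against ipsilateral cortex at 24 h, at another time and so without a test, the 30 kept their sign. For 2 of them the gap was much smaller there. Aqp4 was 12.53 ± 0.19 log2 signal in hippocampus (SD, n = 7), 10.67 ± 0.35 in 4 h cortex (n = 7) and 12.16 ± 0.49 in 24 h cortex (n = 8). Fgfr2 was 10.82 ± 0.21 in hippocampus, 8.9 ± 0.87 in 4 h cortex and 10.31 ± 0.48 in 24 h cortex. The 30 were picked for large differences, and smaller ones did not all keep their sign. Nsf was 12.69 ± 0.27 in hippocampus, 11.82 ± 0.51 in 4 h cortex and 12.72 ± 0.34 in 24 h cortex. For Gnai1 the means were 12.3, 11.43 and 12.47. How many called genes kept their sign was not counted. Spike-in levels of the 24 h ipsilateral cortex arrays, 9.53 to 10.1, overlapped those of hippocampus, 9.46 to 9.92.

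**Figure D5:**
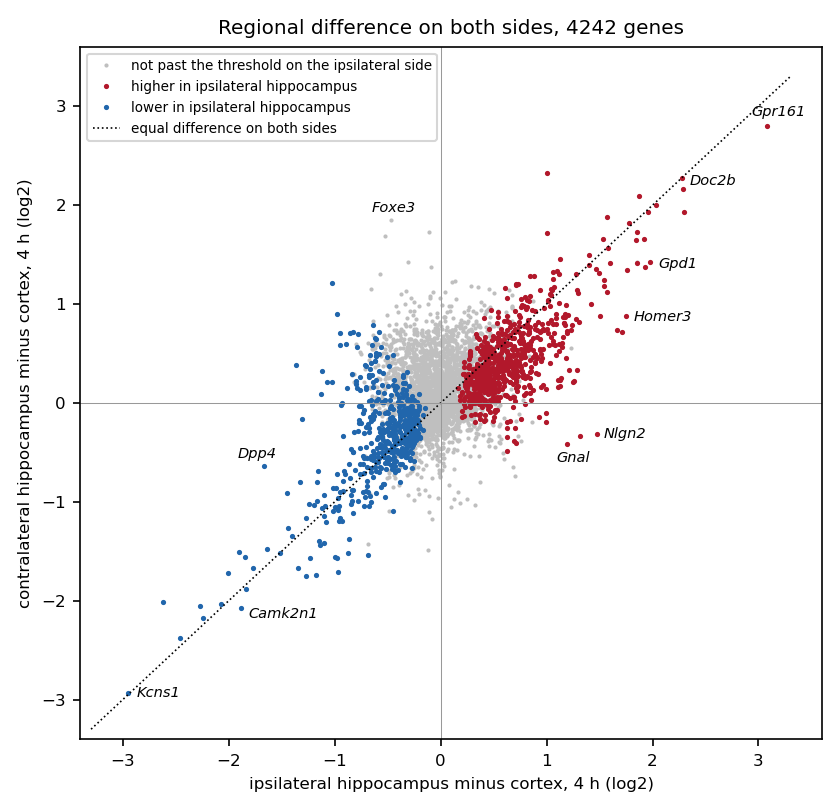
Difference of hippocampus minus cortex at 4 h (log2 units) on the ipsilateral (horizontal) and contralateral (vertical) side for 4242 genes; red and blue points passed higher and lower on the ipsilateral side, grey points did not pass. Gpr161 (3.08 and 2.80) and Kcns1 (−2.95 and −2.93) lie near the line of equality, Gnal (1.20 and −0.42) away from it.

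Whether the regional difference depended on the side was tested directly. Of 7503 probe sets 314 (4.18%) and of 4242 genes 176 (4.15%) passed, 36 genes (0.849%) with a larger and 140 (3.3%) with a smaller difference, in sign, on the ipsilateral side. Of the probe sets 81 (1.08%) had a larger and 233 (3.11%) a smaller one. These calls moved with the 10th percentile of signal, which ran from 37.3 to 57.2 on ipsilateral hippocampus arrays, from 41.5 to 69.7 on ipsilateral cortex arrays, from 46.1 to 99.5 on contralateral hippocampus arrays and from 38.7 to 72.5 on contralateral cortex arrays. With this percentile as a covariate 1 probe set passed, and with only the arrays of the 4 groups in the fit 65 did. Leaving out 1 array gave 134 to 506 probe sets. The count moved by over 1.5 times without ipsilateral cortex arrays 3 (205), 5 (134), 6 (139), 7 (502) and 8 (488) and without ipsilateral hippocampus arrays 18 (151), 19 (192) and 21 (186). It did so too without contralateral hippocampus array 28 (195) and contralateral cortex arrays 10 (165), 14 (506), 15 (177) and 16 (190).

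Among the 6 largest side differences of each sign, the smaller ipsilateral differences came with high levels in contralateral hippocampus. Foxe3, a transcription factor of the lens, averaged 8.27 ± 0.6 in ipsilateral hippocampus, 8.74 ± 1 in ipsilateral cortex, 10.13 ± 0.32 in contralateral hippocampus and 8.28 ± 0.73 in contralateral cortex (log2 signal, SD, n = 7, 7, 9 and 8). The difference of the regional differences was −2.32 (SE 0.45, limma adjusted p = 0.00438). Afm, afamin, a plasma protein, averaged 7.9 ± 0.38 in ipsilateral hippocampus, 8.92 ± 0.76 in ipsilateral cortex, 9.3 ± 0.81 in contralateral hippocampus and 8.08 ± 0.7 in contralateral cortex, giving −2.24 (SE 0.45, limma adjusted p = 0.00606). Grk4, a receptor kinase (−2.22, SE 0.48, limma adjusted p = 0.00787), and Zswim7, a factor of DNA repair (−1.87, SE 0.38, limma adjusted p = 0.00606), had their highest mean in contralateral hippocampus as well, and so did Eif4ebp1, a repressor of translation (−1.84, SE 0.45, limma adjusted p = 0.0172), and Ly6c, a surface antigen of monocytes in mice (−1.87, SE 0.51, limma adjusted p = 0.0279). For Eif4ebp1 this rests on its brightest probe set, with regional differences of −0.11 on the ipsilateral and 1.73 on the contralateral side. Its other probe sets differed by 0.03 and −0.19 on the ipsilateral side and by −0.02 and −0.08 on the contralateral side, and did not pass. Ly6c was as high in ipsilateral cortex (9 ± 1.1) as in contralateral hippocampus (9.03 ± 0.61), against 8.02 ± 0.7 in ipsilateral hippocampus and 8.13 ± 0.59 in contralateral cortex. In the other direction Nlgn2, an adhesion protein of inhibitory synapses, averaged 9.87 ± 0.2 in ipsilateral hippocampus, 8.4 ± 0.75 in ipsilateral cortex, 9.11 ± 1 in contralateral hippocampus and 9.43 ± 0.81 in contralateral cortex, giving 1.79 (SE 0.54, limma adjusted p = 0.0442). Gnal averaged 9.58 ± 0.43 in ipsilateral hippocampus, 8.38 ± 0.87 in ipsilateral cortex, 8.69 ± 0.68 in contralateral hippocampus and 9.11 ± 0.48 in contralateral cortex, giving 1.61 (SE 0.41, limma adjusted p = 0.0197). Dnaja3, a mitochondrial chaperone (1.64, SE 0.43, limma adjusted p = 0.0241), Rpa3 of the replication protein A complex (1.11, SE 0.31, limma adjusted p = 0.0344), Nell1, a secreted protein (1.10, SE 0.32, limma adjusted p = 0.0386), and Sec22a, a protein of vesicle traffic (1.09, SE 0.32, limma adjusted p = 0.0386), completed the 12. Of the 31 arrays of the 4 groups, leaving out a single one ended the call of Nlgn2 for 19, of Nell1 for 16, of Sec22a for 15 and of Rpa3 for 11, spread over all 4 groups. Ly6c lost its call without ipsilateral cortex array 3 or 6, ipsilateral hippocampus array 18 or 21 or contralateral cortex array 15, and Dnaja3 without ipsilateral cortex array 6. All 12 calls were lost with the 10th percentile as a covariate, and 8 with only the 4 groups in the fit.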

How the data were processed

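The deposited values are one summarised signal intensity per probe set and array, as the authors gave them; how probes were summarised and to what target they were scaled is not stated in the labels or headers. Each array's trimmed mean was nearly equal (2502.9 to 2503.6), so the intensities had been scaled per array before deposit. All columns used were matched to a labelled sample, and 0 were left unmatched.

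A floor of 185.8 (25th percentile over the 47 arrays) replaced lower values before the log2 step. The 59 control probe sets, and those above the floor on fewer than 7 arrays, were left out, which left 7503 probe sets and 4242 genes. The limma package (3.58.1, R 4.3.3) fitted 6 group means over all 47 arrays, with an intensity trend and Benjamini-Hochberg adjustment over 7503 probe sets at 0.05. The script was tested on simulated data. Probe sets were named through the platform annotation: 7018 name 1 gene, 308 several and 1473 none.

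Genes named are the 15 furthest up and 15 furthest down among those called, up to 3 called members of each of 39 lists in each direction, by size of difference, and the 6 largest side differences of each sign. Gria2, Gria3, Gria4, Grik2, Grik3, Gabbr1 and Ttr lie outside this rule and were chosen after their values were seen. The comparison and lists were chosen with earlier results of these data known. Alternatives covered the floor, filter, normalization, covariates, array weights and leaving out each array.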

Additional observations from a re-analysis of the deposited data

Results flagged for a closer look

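In 6 of 118 groups of arrays 1 array stood apart from the others (gap over range above Dixon's 95% value); chance alone gives about 1 in 20. Kit was 10.66 log2 signal on hippocampus array 22 and 11.14 to 11.46 on the others (gap over range 0.599). In ipsilateral cortex, Fabp3 was 12.26 on array 6 (0.646), Nnat 13.9 on array 1 (0.587) and Tnnc2 9.99 on array 1 (0.635), and the spike-in level was 11.1 on array 6 (0.61). Sec22a was 8.56 on contralateral hippocampus array 23 and 7.54 to 7.64 on the others (0.898).

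The regional difference, hippocampus minus cortex, differed between the sides for 18 named genes, given as the ipsilateral minus the contralateral difference. It was smaller, in sign, on the ipsilateral side for Foxe3 (−2.32), Afm (−2.24), Grk4 (−2.22), Zswim7 (−1.87), Ly6c (−1.87), Eif4ebp1 (−1.84), Cebpd (−1.43), Icam1 (−1.36), Chrna3 (−1.28) and Dpp4 (−1.03). It was larger for Nlgn2 (1.79), Dnaja3 (1.64), Gnal (1.61), Rpa3 (1.11), Nell1 (1.1), Sec22a (1.09), Homer3 (0.87) and Pvalb (0.52).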

How the results depend on the processing

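No paired analysis was possible because sample numbers occur once each over the groups. The ipsilateral count of 2065 probe sets became 947 with the spike-in level as a covariate and was 1772 to 2201 under the other settings, 1857 to 2097 when 1 array was left out. The contralateral count of 2530 became 1537 with the actin ratio as a covariate, and 2269 to 2652 without single arrays. The count of side differences, 314, was 1 with the 10th percentile as a covariate, 65 with only the groups compared, 832 without ipsilateral cortex arrays 7 and 8, 479 without hippocampus arrays 17 and 22, and 134 (without ipsilateral cortex array 5) to 506 (without contralateral cortex array 14) without single arrays. Quantile normalization moved the share of higher calls to 53% on the ipsilateral side (60.6% as deposited), to 49.3% on the contralateral side (66.2%) and to 36.7% for side differences (25.8%). With the spike-in covariate the sign turned for Cebpd (0.094), Foxe3 (0.001), Gabra6 (0.098), Hsp90ab1 (0.003), Nr3c1 (−0.016) and Scn9a (0.095). It turned after quantile normalization for Hsp90ab1 (0.028) and Mbp (0.019), and for Eif4ebp1 with the 10th percentile (0.209). Without single arrays Eif4ebp1 ran from −0.356 to 0.143. The cause was not tested. Of 180 named genes called on the ipsilateral side, 141 kept the call without each single array, 131 under all planned settings and 99 when the added ones are counted. Signals near the floor limit what dim probe sets can show.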
